A study of Mus musculus with 12 samples.

Results

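The genes of cholesterol synthesis, uptake and efflux were followed in CT26 cells, an established mouse colon carcinoma line. The set was a list of 32 gene symbols, and each gene was read by the probe set that carries its symbol alone and has the highest mean over the 12 arrays. Of the 32 genes, 26 had such a probe set, among 17097 genes measured in the whole series. Acat2, Pmvk, Srebf1, Soat1, Abca1 and Nr1h2 were not analysed here. The arrays formed 4 groups of 3. Control cells (CTR) were kept for 48 hours in normal glucose (1.0 g/L) with 10% fetal bovine serum. Short-term starvation (STS) meant a medium with 0.5 g/L glucose and only 1% serum for the same time. OXP cells were in the control medium and STS+OXP cells in the starvation medium, and both received oxaliplatin, a platinum drug that damages DNA, at 10 µM per the labels, starting 24 hours after the change of medium. The methods of the study give a range of concentrations and its legends for the array experiment a higher one than the labels, so the dose on these arrays is not settled. All groups were the same cell line in culture, and STS lowered glucose and serum together, so that their parts cannot be told apart. The labels do not say whether the arrays of a group were separate cultures, and the p-values therefore measure the spread between arrays, which may be technical.

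Cholesterol is built from acetyl-CoA through mevalonate, the isoprenoid pyrophosphates, squalene and lanosterol. The transcription factor SREBP2, the product of Srebf2, is held in the endoplasmic reticulum by Scap and the Insig proteins while sterols are plentiful. When sterols run low it is cut in the Golgi, enters the nucleus and raises the enzymes of synthesis and the machinery of lipoprotein uptake. The liver X receptors (LXRs, encoded by Nr1h2 and Nr1h3) are nuclear receptors for oxysterols and respond to the opposite state, raising the efflux pumps Abca1 and Abcg1 and Mylip, a ubiquitin ligase that marks lipoprotein receptors for breakdown. The comparison below therefore set 19 measured genes with SREBP2-driven transcription (the synthesis enzymes with Insig1, Srebf2 and Stard4) beside Abcg1 and Mylip, the LXR-driven genes that were measured.

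Promoter sequence is shown for 6 members, because the members that moved together under STS can be compared by the letters in front of their start sites. RefSeq windows (GRCm38.p6, 250 bases before to 50 after each start) were found for 26 of the 32 members. These were not the 26 measured genes. The measured genes Fdps, Fdft1, Sqle, Abcg1, Stard4 and Npc1 had no window, and members that were not analysed, such as Acat2 and Pmvk, had one. The stretches below end at the base before the start, run 5′ to 3′ along the gene, and carry in capitals the sterol regulatory element core TCACNCCAC and the CCAAT box, which is the binding motif of NF-Y, a partner of SREBP2 at many promoters. Hmgcs1 is at chr13:119690151-119690350 (+), Mvk at chr5:114444139-114444268 (+), Idi1 at chr13:8885476-8885605 (+), Tm7sf2 at chr19:6067851-6067980 (-), Mylip at chr13:45389612-45389741 (+) and Scap at chr9:110333158-110333287 (+). The first 4 are synthesis genes, Mylip is LXR-driven, and Scap is shown as a member that did not pass the test under STS and holds neither motif.
Hmgcs1: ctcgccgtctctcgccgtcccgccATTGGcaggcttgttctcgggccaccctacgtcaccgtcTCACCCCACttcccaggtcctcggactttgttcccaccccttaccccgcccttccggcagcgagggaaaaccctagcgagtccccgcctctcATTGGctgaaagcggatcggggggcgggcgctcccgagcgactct
Mvk: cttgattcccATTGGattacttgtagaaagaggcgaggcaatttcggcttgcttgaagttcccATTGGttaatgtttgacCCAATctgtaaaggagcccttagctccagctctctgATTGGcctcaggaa
Idi1: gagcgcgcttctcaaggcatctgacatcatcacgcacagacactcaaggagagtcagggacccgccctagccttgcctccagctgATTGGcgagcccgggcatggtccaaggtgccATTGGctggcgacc
Tm7sf2: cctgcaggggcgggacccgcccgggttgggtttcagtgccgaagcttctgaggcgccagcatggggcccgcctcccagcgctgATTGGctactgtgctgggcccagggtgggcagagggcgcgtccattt
Mylip: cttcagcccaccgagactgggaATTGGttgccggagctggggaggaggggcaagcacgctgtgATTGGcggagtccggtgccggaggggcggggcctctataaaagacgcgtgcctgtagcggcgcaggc
Scap: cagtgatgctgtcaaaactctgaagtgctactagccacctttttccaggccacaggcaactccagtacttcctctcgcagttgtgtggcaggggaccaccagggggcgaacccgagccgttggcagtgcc

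Hmgcs1 carried the sterol regulatory element core, with 2 CCAAT boxes (read as ATTGG on this strand) in the stretch printed. Mvk carried 4 CCAAT boxes, Idi1 and Mylip 2 each and Tm7sf2 1, and Scap had neither motif in its stretch. Scap does not stand for the other members that were not called under STS, since the windows of Ebp and Insig2 held 2 and 3 CCAAT boxes. Over the full windows and both strands, a CCAAT box was found in 16 of 17 SREBP2-driven genes with a window (94.1%) and in 21 of 26 members (80.8%), against 41.1% of 27025 genes with at least 1 window. The sterol regulatory element core was found in 1 of those 17 genes, against 1.44% of all genes. Without its first base (CACNCCAC, a search added after the first was seen) it was found in Acat2, Hmgcs1 and Insig1, 3 of 17 genes, against 7.12% of all genes. The direct repeat of GGTCA with a gap of 5 bases, the form bound by LXRs, was in no member window and in 0.0851% of all genes. These are matches of letters in short windows and were given no test.

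The values were log2 signals from robust multi-array averaging (RMA), and a gene was called at an adjusted p under 0.05 in limma over all genes. The array labelled OXP replicate 2 stood apart from the other OXP arrays in these genes. It lay above both of them for 22 of 26 members, including 19 of 19 SREBP2-driven genes, by 0.41 to 2.05 on the log2 scale against their mean. It lay nearer to the STS+OXP mean than to those arrays for 24 of 26 members. No matching counts over all genes are given, and whether the array differed beyond these members was not tested. The 3′ minus 5′ log2 difference of the Gapdh control probe sets, a measure of RNA integrity, was 3.85 in OXP replicate 1 and between -0.12 and 0.28 elsewhere. The same difference for actin was 2.34 in OXP replicate 1 and between 0.84 and 1.33 elsewhere. Because OXP replicate 2 stood apart in these genes, member results that involve the OXP group are given with it and without it. The fit without it keeps OXP replicate 1. Of 8 colon epithelium markers, Epcam, Krt20 and Cdx2 were above background in all groups, and Cdh1, Krt18, Krt19 and Vil1 were at background in all groups, so the epithelial label was met by some of its defining markers and not by others. The 4 fibroblast markers averaged 4.74 to 4.99 per array in CTR and 5.43 to 5.53 in STS, and 3 of them were called higher in STS. Their part in the STS results was not tested.

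**Figure D1:**
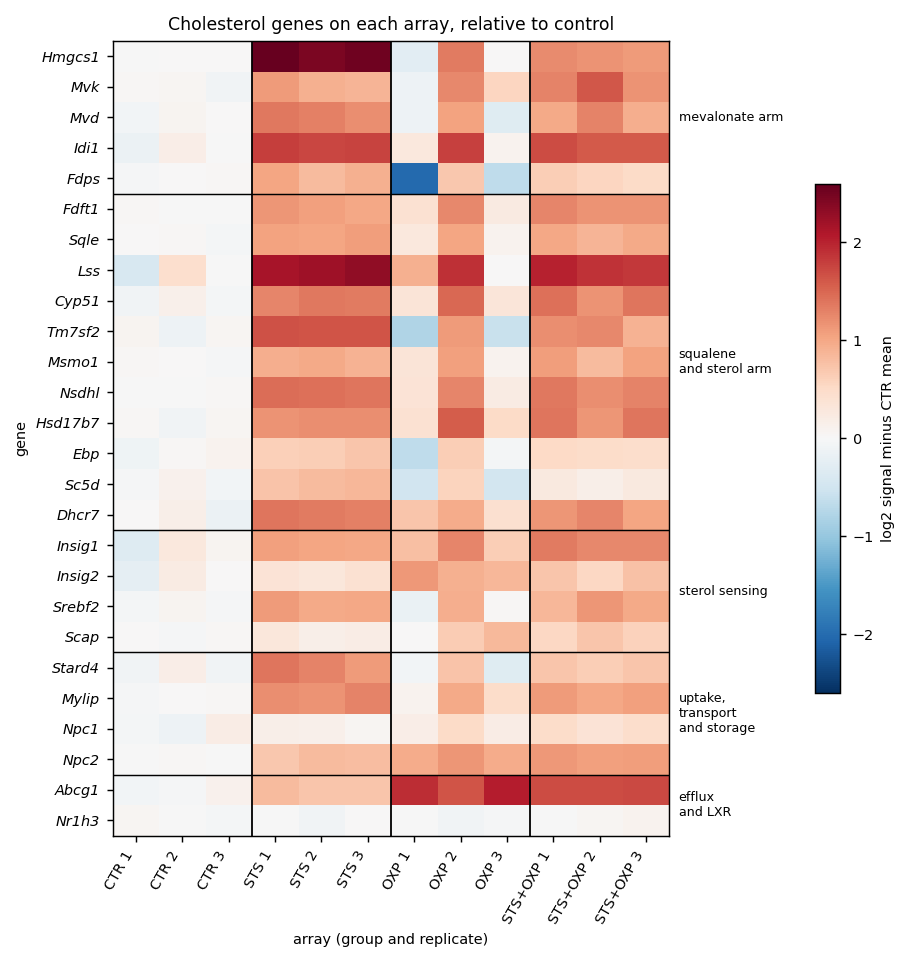
Log2 signal minus the CTR mean for the 26 measured cholesterol genes (rows, grouped by role) on the 12 arrays (columns), red for higher and blue for lower. The 3 STS and the 3 STS+OXP arrays are red for nearly all synthesis genes, OXP replicates 1 and 3 are mostly pale or blue there, and OXP replicate 2 resembles STS+OXP. Hmgcs1 was at background in CTR.

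Starvation without drug was accompanied by higher signals along the whole measured length of the synthesis pathway. In STS against CTR, 20 of 26 members were called higher and none lower, while 9.75% of all genes were called higher and 6.74% lower. The median change of the members was 1.04 on the log2 scale, against -0.03 for all genes. Of the SREBP2-driven genes, 17 of 19 were called higher, with a median of 1.19. The genes outside the call were Fdps, Ebp, Insig2, Scap, Npc1 and Nr1h3. The STS arrays of Npc1 and Nr1h3 overlapped those of CTR. Comparisons against CTR share the same 3 control arrays and are not independent of each other.

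In the mevalonate arm, 4 of 5 measured genes rose under STS. Idi1, which isomerises isopentenyl pyrophosphate, had signals of 7.55, 7.88 and 7.69 in CTR, 9.50, 9.44 and 9.46 in STS, 7.98, 9.48 and 7.80 in OXP, and 9.41, 9.30 and 9.30 in STS+OXP. The STS and STS+OXP arrays stood together above CTR, and the OXP arrays split, with replicate 2 at the starved level. The STS rise of Idi1 was 1.76 ± 0.30 (SE, n = 3 against 3, adjusted p = 0.0012), or 3.39-fold. Mvd, which decarboxylates mevalonate pyrophosphate, rose by 1.30 ± 0.25, and Mvk, the mevalonate kinase, by 0.98 ± 0.24. Fdps, which makes farnesyl pyrophosphate, was 0.93 ± 0.44 higher (adjusted p = 0.20) with signals of 8.97 to 9.04 in CTR and 9.84 to 10.04 in STS.

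Hmgcs1, the synthase that makes HMG-CoA, was measured by a dim probe set, and its signals were 2.95, 2.98 and 2.97 in CTR, 5.65, 5.42 and 5.50 in STS, 2.70, 4.32 and 2.98 in OXP, and 4.19, 4.14 and 4.08 in STS+OXP. CTR was not above the background of 3.21 to 3.72 set by the non-specific control probe sets, and nor were OXP replicates 1 and 3. Its rise in STS was therefore at least 3.65-fold (fitted change 2.56, adjusted p = 3.6e-05), and in STS+OXP against CTR at least 1.39-fold. Among the synthesis genes with a printed promoter stretch, only Hmgcs1 held the sterol regulatory element core. The part of that motif in its rise was not tested.

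In the squalene and sterol arm, 10 of 11 genes rose under STS, with a median change of 1.19. Lss, the cyclase that closes the sterol rings, had signals of 3.56, 4.41 and 3.96 in CTR, 6.12, 6.17 and 6.27 in STS, 4.91, 5.87 and 3.98 in OXP, and 5.97, 5.85 and 5.81 in STS+OXP. Its rise of 2.21 ± 0.34 in STS (adjusted p = 0.00047) was 4.64-fold, with a wide spread among the CTR arrays. Tm7sf2, a sterol reductase of the steps after lanosterol, had signals of 5.28, 5.06 and 5.26 in CTR, 6.86, 6.84 and 6.83 in STS, 4.42, 6.31 and 4.61 in OXP, and 6.40, 6.44 and 6.11 in STS+OXP. OXP replicates 1 and 3 lay below every CTR array for Tm7sf2, and OXP replicate 2 lay among the STS+OXP arrays. Tm7sf2 rose by 1.64 ± 0.34 in STS, Nsdhl, which takes part in removing the methyl groups at carbon 4, by 1.42 ± 0.19, and Dhcr7, which makes cholesterol from its last precursor, by 1.35 ± 0.12. Of the entry enzymes, Fdft1 (squalene synthase) rose by 1.07 ± 0.19 and Sqle (squalene epoxidase) by 1.05 ± 0.17. The sterol demethylase Cyp51 rose by 1.33 ± 0.23, Hsd17b7 by 1.19 ± 0.22, Msmo1 by 0.94 ± 0.18 and the desaturase Sc5d by 0.81 ± 0.21. Ebp, the sterol isomerase, was 0.66 ± 0.22 higher (adjusted p = 0.057).

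Among the sterol sensors, the members of the SREBP2 circuit did not move alike. Srebf2 signals were 6.65, 6.78 and 6.68 in CTR, 7.81, 7.68 and 7.71 in STS, 6.53, 7.64 and 6.73 in OXP, and 7.56, 7.85 and 7.69 in STS+OXP, following the synthesis genes on each array. Insig1, which retains the Scap and SREBP complex and is itself an SREBP target, was at 8.76, 9.37 and 9.16 in CTR, 10.15, 10.11 and 10.10 in STS, 9.87, 10.36 and 9.74 in OXP, and 10.44, 10.33 and 10.34 in STS+OXP. All arrays of the 3 treated groups were above CTR for Insig1. The STS rise was 1.03 ± 0.21 for Srebf2 and 1.03 ± 0.16 for Insig1. Insig2, the second retention protein, was at 5.89, 6.34 and 6.13 in CTR, 6.47, 6.42 and 6.51 in STS, 7.25, 7.04 and 6.98 in OXP, and 6.85, 6.65 and 6.88 in STS+OXP. Here the OXP arrays were the highest and did not overlap any other group, and STS was 0.34 ± 0.11 above CTR (adjusted p = 0.051). Scap, the escort protein, was 0.22 ± 0.16 above CTR in STS (adjusted p = 0.43).

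Of the 4 measured genes of uptake and transport, 3 rose under STS. Stard4, a soluble sterol carrier, rose by 1.26 ± 0.20 and Npc2, the soluble cholesterol carrier of the lysosome, by 0.78 ± 0.07. Mylip signals were 7.17, 7.21 and 7.23 in CTR, 8.40, 8.38 and 8.49 in STS, 7.30, 8.20 and 7.68 in OXP, and 8.31, 8.21 and 8.27 in STS+OXP, so that STS and STS+OXP were above CTR with no overlap. Its STS rise was 1.22 ± 0.16 (adjusted p = 0.00011), or 2.33-fold. Npc1, the membrane partner of Npc2, was 0.11 ± 0.10 higher in STS (adjusted p = 0.55), and its arrays overlapped those of CTR.

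**Figure D2:**
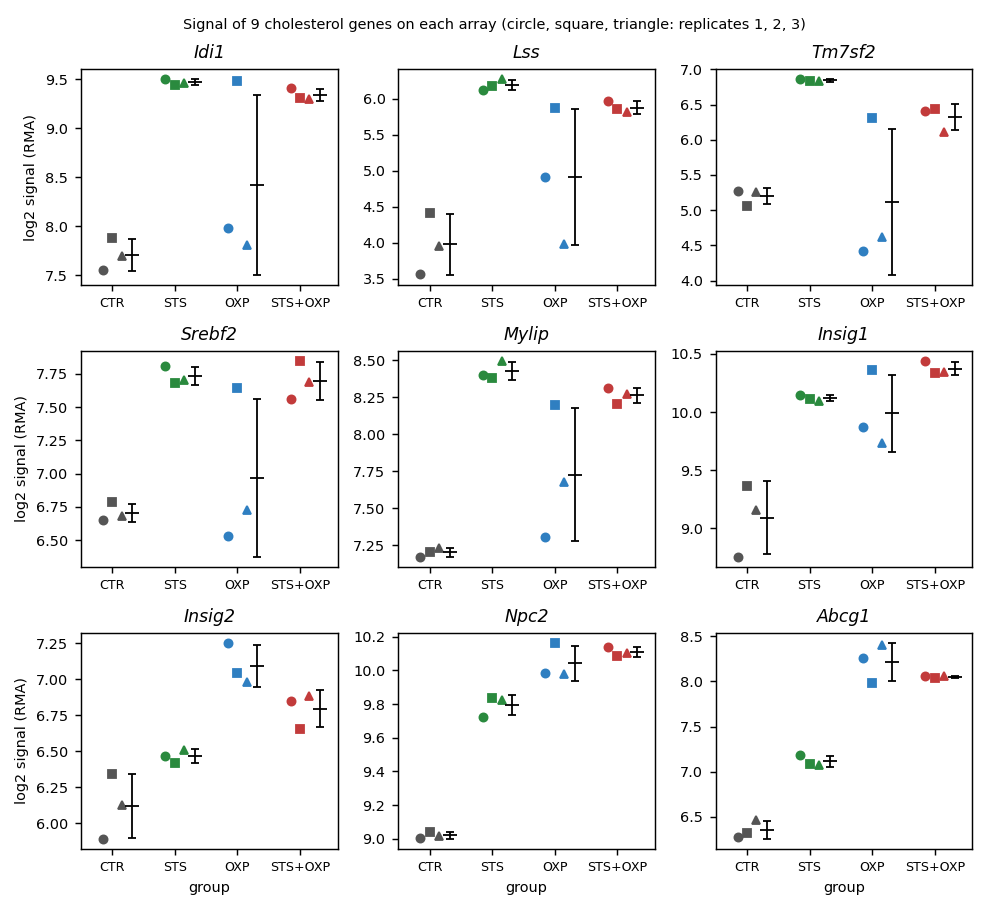
Log2 signal of 9 cholesterol genes on each array by group, with circles, squares and triangles for replicates 1, 2 and 3 and bars for the mean ± SD (n = 3). In Idi1, Tm7sf2 and Srebf2 the square of OXP lies apart from the other OXP points. In Lss and Mylip the OXP points are spread out, with the square highest. In Insig2, Npc2 and Abcg1 all OXP points lie well above CTR.

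In cells given oxaliplatin without starvation, Abcg1, Npc2, Mylip and both Insig genes were higher than in CTR with and without OXP replicate 2. The same held for the synthesis genes Fdft1, Cyp51, Nsdhl, Hsd17b7 and Dhcr7. Without that array the rises of these synthesis genes were smaller, as was that of Mylip (0.52 with it and 0.29 without). The calls of Lss, Msmo1, Fdps, Tm7sf2 and Sc5d depended on that array. Stard4 was 0.12 ± 0.20 above CTR (adjusted p = 0.73). With all arrays, 14 of 26 members were called higher in OXP against CTR and none lower, while 17.5% of all genes were called higher and 13.9% lower. Without OXP replicate 2, 10 members were called higher and 3 lower, beside 17.8% and 13.1% of all genes. The members called lower were then Fdps (fell by 1.34 ± 0.26 on the log2 scale, adjusted p = 0.0011), Tm7sf2 (fell by 0.68 ± 0.11) and Sc5d (fell by 0.48 ± 0.08). These falls rest on OXP replicate 1, the array with the Gapdh difference of 3.85, and on OXP replicate 3, and the part of RNA quality was not tested. With OXP replicate 1 left out in place of replicate 2, the changes were 0.02 ± 0.25 for Fdps, 0.26 ± 0.32 for Tm7sf2 and 0.06 ± 0.20 for Sc5d, and none was called. That fit, which keeps OXP replicate 2, called Mvk, Idi1 and Sqle higher, none of which was called with all arrays. They rose by 0.91 ± 0.17 (adjusted p = 0.00068), 0.93 ± 0.31 (adjusted p = 0.032) and 0.56 ± 0.18 (adjusted p = 0.028). Lss was no longer called in it (0.95 ± 0.37, adjusted p = 0.070). The SREBP2-driven genes had a median change of 0.50 with all arrays and 0.19 without OXP replicate 2. Fdps signals on the OXP arrays were 6.99, 9.71 and 8.34, around the CTR signals of 8.97, 9.02 and 9.04. The number of members called was 6 without CTR replicate 1, 9 without CTR replicate 2 and 8 without CTR replicate 3. Shares over all genes are not given for those fits, so these counts cannot be set against them.

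The 10 members called higher without OXP replicate 2 were Fdft1, Cyp51, Nsdhl, Hsd17b7, Dhcr7, Insig1, Insig2, Mylip, Npc2 and Abcg1, and all of them were also called with it. Npc2 was at 9.00, 9.04 and 9.01 in CTR, 9.72, 9.84 and 9.82 in STS, 9.98, 10.16 and 9.98 in OXP, and 10.14, 10.09 and 10.11 in STS+OXP, and every OXP array was above every STS array. Its OXP rise was 1.02 ± 0.07 (adjusted p = 8.7e-08), and 0.96 ± 0.07 without OXP replicate 2. Insig2 rose by 0.97 ± 0.11 and by 0.99 ± 0.13 without that array, Insig1 by 0.90 ± 0.16 and 0.71 ± 0.13, and Dhcr7 by 0.70 ± 0.12 and 0.56 ± 0.11. Lss rose by 0.94 ± 0.34 with all arrays and was 0.47 ± 0.24 higher without that array (adjusted p = 0.18). Scap, 0.51 ± 0.16 higher with all arrays, was 0.43 ± 0.17 higher without OXP replicate 2 (adjusted p = 0.080), and Npc1 was 0.29 ± 0.10 and 0.18 ± 0.10 higher (adjusted p = 0.047 and 0.19).

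**Figure D3:**
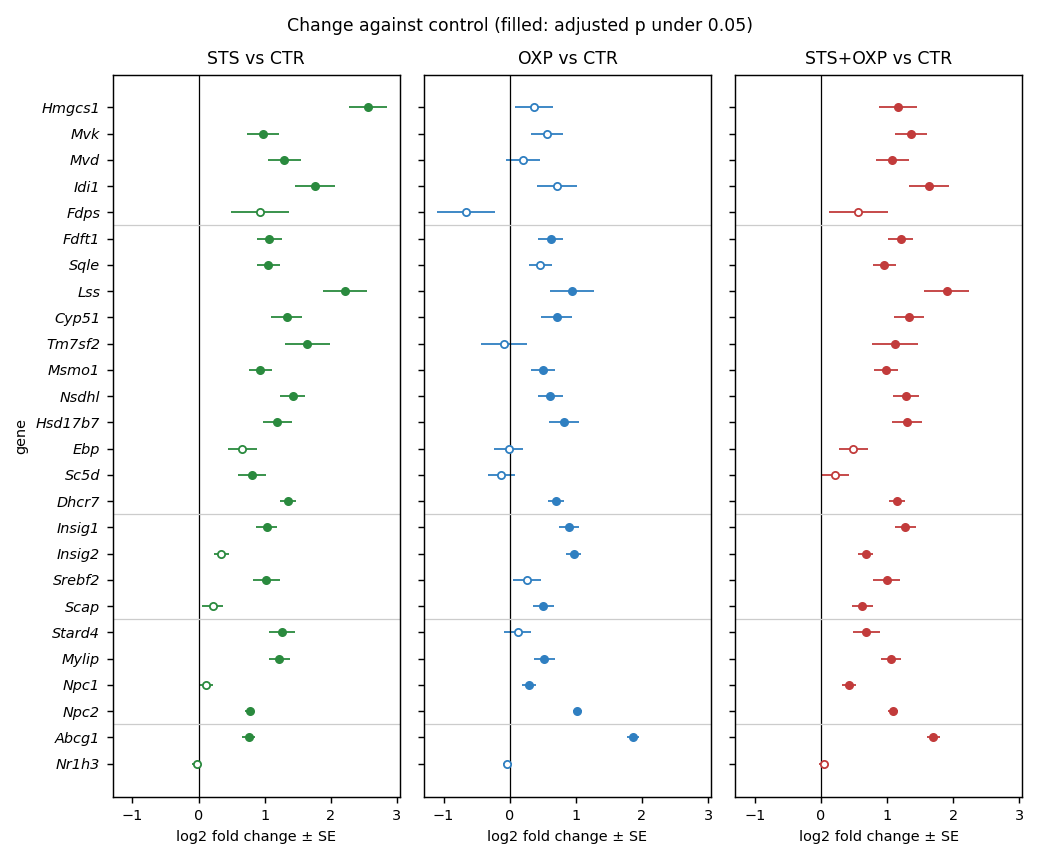
Log2 fold change ± SE of the 26 measured members against CTR in STS, OXP and STS+OXP (n = 3 arrays a group, filled points for an adjusted p under 0.05). Most synthesis genes sit near 1 or above in STS and STS+OXP and lower in OXP, while Abcg1 is at 0.76, 1.86 and 1.70.

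Cells starved and given oxaliplatin had higher signals than control in most members, with 13 of the 16 measured synthesis enzymes called. In STS+OXP against CTR, 22 of 26 members were called higher and none lower, beside 16.4% and 14.2% of all genes, with a median change of 1.08. All 4 measured sterol sensors and all 4 genes of uptake and transport were called, with Insig1 at 1.28 ± 0.16, Insig2 at 0.67 ± 0.11, Scap at 0.63 ± 0.16 and Npc1 at 0.43 ± 0.10. Idi1 rose by 1.63 ± 0.30, Lss by 1.90 ± 0.34 and Mvk by 1.36 ± 0.24. The members that were not called were Fdps, Ebp, Sc5d and Nr1h3. Sc5d, which had risen in STS, was 0.22 ± 0.21 higher (adjusted p = 0.53), with signals of 7.51, 7.64 and 7.45 in CTR and 7.78, 7.69 and 7.78 in STS+OXP. With OXP replicate 2 left out of the fit, 24 members were called higher and none lower, beside 2967 and 2577 of 17097 genes. Ebp (adjusted p = 0.0062) and Sc5d (adjusted p = 0.032) were then called.

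The effect of starvation in the presence of the drug, STS+OXP against OXP, turned on OXP replicate 2. With all arrays, none of the 26 members was called by limma, beside 0.00585% of all genes in each direction. At an unadjusted limma p under 0.05, 19 members were higher and 1 lower, beside 787 and 1373 of 17097 genes. The unequal-variance test that the methods name also called none. Without OXP replicate 2, 20 members were called higher and none lower, beside 2.38% and 4.44% of all genes, and these were all 19 SREBP2-driven genes and Mylip. Their changes in that fit ran from 0.57 ± 0.13 for Insig1 to 1.91 ± 0.26 for Fdps. Tm7sf2 rose by 1.80 ± 0.11 (adjusted p = 1.3e-06), Idi1 by 1.45 ± 0.10, Mvd by 1.30 ± 0.11, Srebf2 by 1.07 ± 0.10, Stard4 by 0.88 ± 0.11 and Mylip by 0.77 ± 0.10. The members that were not called were Insig2 (-0.32 ± 0.13), Scap (0.20 ± 0.17), Npc1 (0.24 ± 0.10), Npc2 (0.13 ± 0.07), Abcg1 (-0.28 ± 0.08, adjusted p = 0.061) and Nr1h3 (0.06 ± 0.07). The OXP arrays left in this fit were replicate 1, the array with the Gapdh difference of 3.85, and replicate 3. Fdps was at 6.99 and 8.34 on them, and the part of RNA quality in these sizes was not tested.

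**Figure D4:**
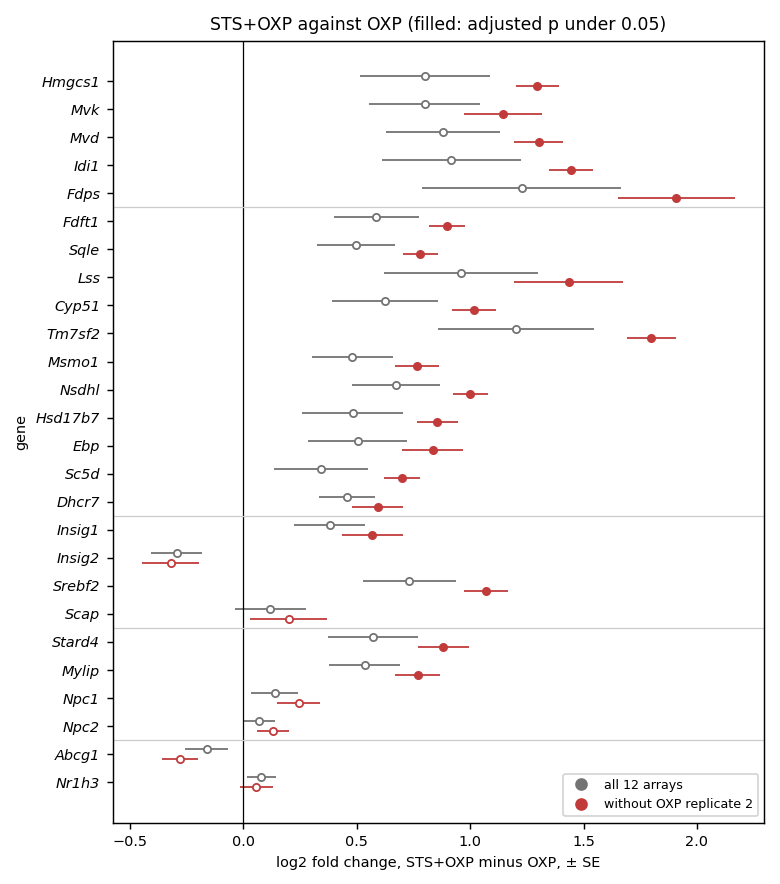
Log2 fold change ± SE of the 26 measured members in STS+OXP against OXP, with all 12 arrays (grey) and without OXP replicate 2 (red), filled for an adjusted p under 0.05. No grey point is filled, and 20 red points are, all of them on the right of 0.

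In starved cells, the comparison of STS+OXP with STS gave few calls. Here 4 members were called higher and 1 lower, beside 10.8% and 11.2% of all genes, and the median change of the members was -0.06. Hmgcs1 fell by 1.39 ± 0.29 on the log2 scale (adjusted p = 0.0027), with both groups above background. Abcg1 rose by 0.94 ± 0.10, Npc2 by 0.32 ± 0.07, Insig2 by 0.33 ± 0.11 (adjusted p = 0.049) and Npc1 by 0.31 ± 0.10 (adjusted p = 0.043). Cyp51 differed by 0.00 ± 0.23, Msmo1 by 0.05 ± 0.18 and Srebf2 by -0.03 ± 0.21. With all arrays, Sc5d (-0.59 ± 0.21, adjusted p = 0.061) and Stard4 (-0.57 ± 0.20, adjusted p = 0.057) missed the threshold. The fit without OXP replicate 2 also called Sc5d (adjusted p = 3.5e-05), Stard4 (adjusted p = 0.00073) and Tm7sf2 (-0.52 ± 0.10, adjusted p = 0.0012) lower. It called 4 members higher and 4 lower, beside 2087 and 2055 of 17097 genes. The number called was 8 when any of the 3 OXP arrays was left out, and 3 when any STS array, STS+OXP replicate 1 or STS+OXP replicate 3 was.

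The interaction asks whether the starvation effect differed with and without the drug. The fitted interaction was called below 0 in 5 of 26 members and above 0 in none, beside 5.76% and 2.53% of all genes. Abcg1 differed by -0.92 ± 0.14 (adjusted p = 0.00084), Npc2 by -0.71 ± 0.10, Dhcr7 by -0.90 ± 0.18, Insig2 by -0.64 ± 0.16 and Hmgcs1 by -1.76 ± 0.40. Hmgcs1 was at background in CTR and in the OXP mean, so both of its starvation effects are lower bounds and neither the size nor the direction of its interaction was measured. Without OXP replicate 2 those genes were called again, with Nsdhl (-0.42 ± 0.10, adjusted p = 0.020) and Mylip (-0.45 ± 0.13, adjusted p = 0.049), beside 7.29% of all genes called lower. Without OXP replicate 3 the count was 10. For Tm7sf2 and Mvd, the interaction without OXP replicate 2 was 0.16 ± 0.15 and 0.00 ± 0.15.

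The efflux side rested on Abcg1, the pump that hands cholesterol to high-density lipoprotein, and on Nr1h3, the gene of LXR alpha. Abcg1 was at 6.27, 6.32 and 6.46 in CTR, 7.18, 7.08 and 7.07 in STS, 8.26, 7.98 and 8.40 in OXP, and 8.06, 8.04 and 8.06 in STS+OXP. The groups with and without the drug did not overlap, and STS lay between CTR and both drug groups. Against CTR, the STS rise of Abcg1 was 0.76 ± 0.10 and the OXP rise 1.86 ± 0.10 (3.64-fold, adjusted p = 6.0e-09), or 1.98 ± 0.08 without OXP replicate 2. The rise in STS+OXP was 1.70 ± 0.10. Nr1h3 signals were between 4.06 and 4.24 on all 12 arrays, and its changes against CTR were -0.03, -0.04 and 0.04, each with an SE of 0.07. Abcg1 is also a gene of macrophages, and of 8 macrophage markers Lyz2, Itgam, Aif1 and C1qa were at background in all groups. Cd14 and Cd68 were called higher in OXP, with and without OXP replicate 2. The mean of the 8 markers per array ran from 3.38 to 3.53 in CTR, 3.39 to 3.43 in STS, 3.47 to 3.91 in OXP and 3.53 to 3.57 in STS+OXP, and their part in the Abcg1 result was not tested.

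Set side by side on each array, the SREBP2-driven genes and Abcg1 did not rank the groups alike, and Mylip ranked them as the SREBP2-driven genes did. The mean difference from CTR over the 19 SREBP2-driven genes was 1.32, 1.28 and 1.27 in STS, 0.00, 1.16 and 0.04 in OXP, and 1.13, 1.09 and 1.05 in STS+OXP. The difference was 0.83, 0.73 and 0.72 in STS, 1.91, 1.63 and 2.05 in OXP, and 1.71, 1.69 and 1.71 in STS+OXP for Abcg1. For Mylip it was 1.20, 1.18 and 1.29, then 0.10, 0.99 and 0.48, then 1.11, 1.00 and 1.06. The OXP array with the highest SREBP2-driven mean was the one with the lowest Abcg1 and the highest Mylip signal in its group.

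**Figure D5:**
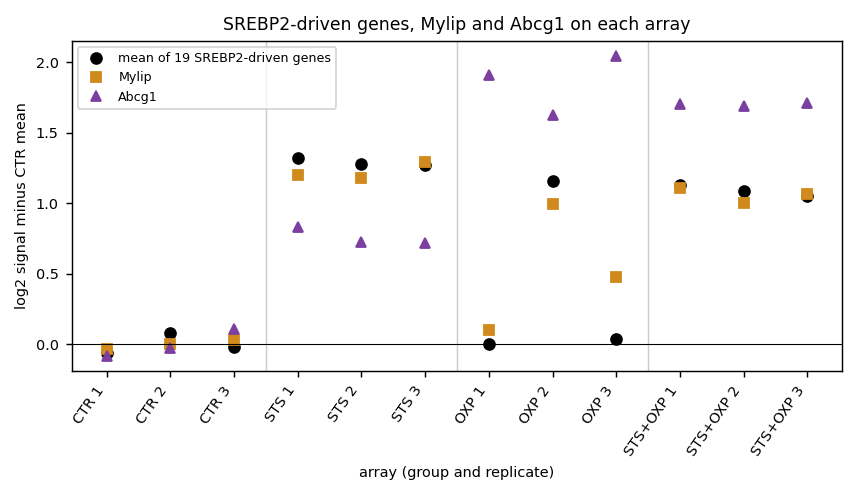
Log2 signal minus the CTR mean on each of the 12 arrays, for the mean of 19 SREBP2-driven genes (circles), Mylip (squares) and Abcg1 (triangles). Abcg1 lies below the other points in STS and above them in OXP and STS+OXP.

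Genes around the pathway were read from 4 further lists. Over all genes, 9.75% were called higher and 6.74% lower in STS, and 17.5% and 13.9% in OXP (17.8% and 13.1% without OXP replicate 2), and the counts of each list stand beside these shares. In the supply of acetyl-CoA and the isoprenoid branches, 3 of 10 measured genes rose in STS. These were the feeding enzymes Acss2, which makes acetyl-CoA from acetate, by 2.78 ± 0.19 (6.85-fold), Aacs, which activates acetoacetate, by 1.36 ± 0.33, and Acly, which splits citrate, by 0.89 ± 0.10. The isoprenoid branch genes Ggps1, Dhdds, Pdss2, Fnta, Fntb and Pggt1b were not called. In OXP, Acss2 rose by 1.90 ± 0.19 and Acly by 0.76 ± 0.10, and the mitochondrial thiolase Acat1 fell by 0.43 ± 0.09 on the log2 scale. Leaving out OXP replicate 2 gave 3 genes of this list called higher in OXP and 1 lower.

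Among 7 measured genes of SREBP processing and of sterol-regulated degradation, 2 were higher and 1 lower in STS, and 4 were higher and 2 lower in OXP. Mbtps1, the first protease that cuts SREBP, rose by 0.34 ± 0.08 in STS and was 0.17 ± 0.08 higher in OXP (adjusted p = 0.14). Erlin1 fell by 0.59 ± 0.07 in STS and 1.34 ± 0.07 in OXP on the log2 scale. Tmem97, a sterol-responsive protein that binds Npc1, fell by 1.97 ± 0.13 in OXP, and Pgrmc1 rose by 1.08 ± 0.07. The counts in OXP were again 4 and 2 without OXP replicate 2.

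Of 17 measured genes of other uptake, carriers and ester storage, 4 were higher and 4 lower in STS, and 10 were higher and 4 lower in OXP. The lipoprotein receptor Vldlr fell by 1.12 ± 0.18 in STS and rose by 1.23 ± 0.18 in OXP. Its relative Lrp8 fell by 1.80 ± 0.11 in OXP, Lrp1 rose by 0.85 ± 0.09 in STS, and the receptor chaperone Lrpap1 rose by 1.06 ± 0.10 in OXP. The list had a median change of 0.05 in STS, against 1.19 for the SREBP2-driven genes. Its counts in OXP were again 10 and 4 without OXP replicate 2.

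Of 11 measured LXR targets, partners and oxysterol enzymes outside the member list, 2 rose in STS and none fell, and 5 rose and 1 fell in OXP. Lpcat3, a phospholipid enzyme under LXR control, rose by 1.21 ± 0.14 in STS and 0.52 ± 0.14 in OXP. Pltp, the phospholipid transfer protein, was 0.09 ± 0.12 higher in STS (adjusted p = 0.71) and rose by 0.89 ± 0.12 in OXP. The oxysterol enzymes Hsd3b7 and Cyp27a1 rose in OXP by 1.51 ± 0.12 and 0.80 ± 0.13. Again 5 were called higher in OXP and 1 lower without OXP replicate 2. The measured LXR targets split, with Lpcat3 and Mylip higher in STS than in OXP and Abcg1 and Pltp the other way. The STS level of Pltp was also near background. The differences between STS and OXP were not tested.

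Several members had further probe sets, which were read with no test. The second Idi1 probe set was 1.94 higher in STS than in CTR and 0.80 higher in OXP, and a second Cyp51 probe set was 2.09 and 0.80 higher, on the log2 scale. The second Mvd probe set was 1.35 higher in STS and -0.03 in OXP. The second Abcg1 probe set, a dim one with a mean of 3.59, was higher than CTR by 0.38 under STS, 0.79 under OXP and 0.71 under both, in the same order as the first. For Sc5d, one further probe set was 1.29 higher in STS and the other differed by 0.00, so the probe sets of this gene disagreed. Against CTR, a further Stard4 probe set was 0.68 higher in STS but differed by -0.67 in OXP and -0.12 in STS+OXP, and with the mean of all probe sets the STS+OXP change of Stard4 was 0.41 (adjusted p = 0.24). The second Mvk probe set was 0.46 higher in STS and 0.16 in STS+OXP, and the second Srebf2 probe set 0.57 and 0.34, each less than the first.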

How the data were processed

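Total RNA of 12 CT26 samples was labelled with a 3′ expression kit and hybridised to Affymetrix mouse arrays, per the labels and the study's methods. The authors deposited RMA values on the log2 scale for 45141 probe sets, and the submitters' processing notes name RMA and R 3.02. RMA fits all arrays together, which pulls their distributions to a common shape, so a change shared by most genes cannot be seen. Of the probe sets, 28898 had 1 gene symbol, 551 several and 15588 none, and 104 were controls. Only those with 1 symbol were used, giving 17097 genes by the probe set with the highest mean. A level at or below the highest of 22 non-specific control probe sets (3.21 to 3.72) was taken as background. The number of arrays limits the precision.

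Group means were fitted in limma 3.58.1 (R 4.3.3) on all 12 arrays with empirical Bayes variances (8 residual and 5.05 prior degrees of freedom), with two-sided p-values adjusted by Benjamini-Hochberg over all genes. The fit was tested on simulated data. All members are named, with up to 4 called genes of each further list with the largest changes, plus examples chosen after their values were seen. Members and lists were chosen with earlier results of these data known. Coordinates and promoters are from RefSeq, GRCm38.p6, and symbol matching was by the array annotation. Alternatives were median centring, cyclic loess, the mean of all probe sets, genes above the median signal, trended and robust variances, the compared arrays alone, a replicate block, the methods' test, a 2-fold limit and leaving out arrays. Figures were drawn with matplotlib 3.10.9 under Python 3.11.15.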

Additional observations from a re-analysis of the deposited data

Results flagged for a closer look

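In 4 cholesterol genes with measured levels in all groups, Dhcr7, Insig2, Npc2 and Abcg1, the starvation effect was lower with oxaliplatin than without it by a test of the difference itself (limma, adjusted over all genes). Hmgcs1 also passed this test, from values at background. The fitted difference on the log2 scale was -1.76 ± 0.40 (SE) for Hmgcs1 (adjusted p = 0.016), -0.90 ± 0.18 for Dhcr7 (adjusted p = 0.0060), -0.64 ± 0.16 for Insig2 (adjusted p = 0.023), -0.71 ± 0.10 for Npc2 (adjusted p = 0.00054) and -0.92 ± 0.14 for Abcg1 (adjusted p = 0.00084). Without OXP replicate 2 the differences were -1.26, -0.76, -0.66, -0.65 and -1.04 in that order. Hmgcs1 was at background in CTR and on OXP replicates 1 and 3, so that neither the size nor the direction of its difference was measured. Insig2, Npc2 and Abcg1 were already higher in OXP than in STS, with no overlap between the arrays. The Insig2 call was lost with the mean of all probe sets. It was also lost without CTR replicate 1 or 3, STS replicate 1 or 3, or STS+OXP replicate 2. The calls of Dhcr7, Npc2 and Abcg1 were kept in each of those cases.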

How the results depend on the processing

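Under 22 alternatives, none of the 66 calls of a member in a comparison reversed. Of these calls, 39 were kept under every alternative other than the 2-fold limit, counting those that measured the gene. Counts of members called that moved by over 1.5 times are given here. No shares over all genes stand beside the counts under these alternatives. The fit without OXP replicate 2 is the exception, with shares given in the paragraphs above. For OXP against CTR (14 called), the count was 8 with cyclic loess, 9 with trended and robust variances, 5 with only the arrays compared, 2 by the methods' test (5 at its unadjusted threshold) and 2 with a 2-fold limit. For STS+OXP against STS (5 called), it was 3 with median centring, 3 with trended and robust variances, 13 with only the arrays compared (7 higher, 6 lower), 1 with a 2-fold limit, and 11 without OXP replicates 1 and 2 together. For the interaction (5 called) it was 1 with a 2-fold limit, and for STS+OXP against OXP (0 called) it was 19 without OXP replicates 1 and 2 together. Leaving out 1 array at a time gave 18 to 23 calls in STS against CTR, 6 to 16 in OXP against CTR, 20 to 24 in STS+OXP against CTR, 0 to 20 in STS+OXP against OXP (20 without OXP replicate 2 and 0 in each other case), 3 to 8 in STS+OXP against STS and 4 to 10 in the interaction. With only the arrays compared fewer samples set the spread, and the other causes were not tested. Of the members of this set, Abcg1 and Npc2 were called in OXP against CTR under every alternative. Both scalings moved the median of all genes by less than 0.1 on the log2 scale. Signals near background, as for Hmgcs1, limit what the arrays can show.

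The replicate numbers were not taken to pair the arrays, since 1 of 18 correlations of same-numbered deviations was over 0.1 (range -0.20 to 0.10). With the replicate number as a block, 20 members were called for STS against CTR, 12 for OXP against CTR and 22 for STS+OXP against CTR. The block gave 0 calls when OXP was the reference of STS+OXP, 4 when STS was, and 5 in the interaction, and 62 of 66 calls were kept.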
